A study of Homo sapiens with 6 samples.

Results

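The genes described here encode 9 proteins reported to bind the kinase GRK2 or to be phosphorylated by it, namely HDAC6, MDM2, GIT1, EZR, RDX, RALA, CAV1, AKT1 and PEBP1. They were chosen by name, and all 9 were found among the 18678 genes of the deposited expression table. Messenger RNA was sequenced from Cal27, an established line of human tongue carcinoma cells of squamous type, and from Cal27-shGRK2, in which a short hairpin RNA targets GRK2. Both were kept in medium with fetal bovine serum and collected while subconfluent. A control vector in the Cal27 cells and the number of hairpins or clones are not stated. The labels name 3 libraries per group, numbered 0, 1 and 2, but for Cal27-shGRK2 the values numbered 0 and 1 were equal in all 18678 genes. They were counted as 1 sample, so that the comparison is of 3 Cal27 with 2 Cal27-shGRK2 libraries. It is not stated whether each library is a culture of its own, and the p-values therefore reflect the spread among these samples alone, which may be technical.

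GRK2 is a serine/threonine kinase best known for phosphorylating activated G protein-coupled receptors, after which arrestins bind the receptor and end its signal. It also phosphorylates or binds proteins that are not receptors, among them cytoskeletal linkers, small GTPases, kinases and a deacetylase, and so has been linked to cell migration, growth signalling and survival. These contacts are between proteins. The measurements below are of messenger RNA, given as FPKM (fragments mapped to a transcript, scaled by its length and by the mapped fragments of the library), and they hold no information on phosphorylation, binding or protein amount.

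GRK2 itself, listed under its older symbol ADRBK1, checked the labels. It had 55.3, 59.4 and 55.8 FPKM in Cal27, against 17.3 and 16.6 in Cal27-shGRK2, where its mean was 3.35-fold lower (limma adjusted p = 3.8e-11). Sequencing depth could not be recovered from FPKM. Summed FPKM ranged from 590163 to 644831, with 13269 to 13369 genes at 1 FPKM or more. All 12 squamous epithelial markers examined, such as KRT5 and TP63, were detected. Beside 29.6% of all genes tested, all 12 markers passed the limma test described below, 9 lower and 3 higher in Cal27-shGRK2. Their summed FPKM was 3188 to 3566 in Cal27 and 1505 to 1545 in Cal27-shGRK2. Of 8 fibroblast markers 3 were in the table, of which only COL1A1 reached a mean of 1 FPKM, and they summed to 4.20 to 4.41 FPKM in Cal27 and 3.78 to 3.85 FPKM in Cal27-shGRK2. Of 10 blood and endothelial markers 2 were in the table, CD14 and the endothelial cadherin CDH5, which together had 4.27 to 4.76 FPKM in Cal27 and 7.53 to 7.54 FPKM in Cal27-shGRK2. CDH5 rose (log2 fold change 0.76, adjusted p = 7.9e-06). The part of these marker shifts in the results below was not tested. In bulk RNA, fewer cells of a kind and less RNA per cell cannot be told apart.

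Among the 9 partners, the caveolar protein CAV1 fell by 33.9%, HDAC6 and GIT1 rose by 22.2% and 19.0%, and EZR, RDX, RALA, AKT1, PEBP1 and MDM2 did not pass the test. The test was limma on log2(FPKM + 1), two-sided, with a Benjamini-Hochberg adjusted p under 0.05 over the 13377 genes that had a mean of at least 1 FPKM, which included all 9 partners. By it, 3 of the 9 partners passed, beside 29.6% of all genes tested. By direction, 2 partners were higher, against 15.0% of all genes, and 1 was lower, against 14.6%. Libraries of Cal27 and Cal27-shGRK2 did not overlap for 3 partners, against 53.3% of all genes tested (2 higher, against 25.9%, and 1 lower, against 27.4%). The median log2 fold change was 0.07 for the partners and -0.0054 for all genes, and the median size regardless of direction was 0.08 and 0.14. The share of partners that passed was near that of all genes. Leaving out either Cal27-shGRK2 library left 1 partner past the threshold, CAV1, and the authors' deposited table also marks only CAV1 (15.4% of its 18678 genes are marked significant).

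**Figure D1:**
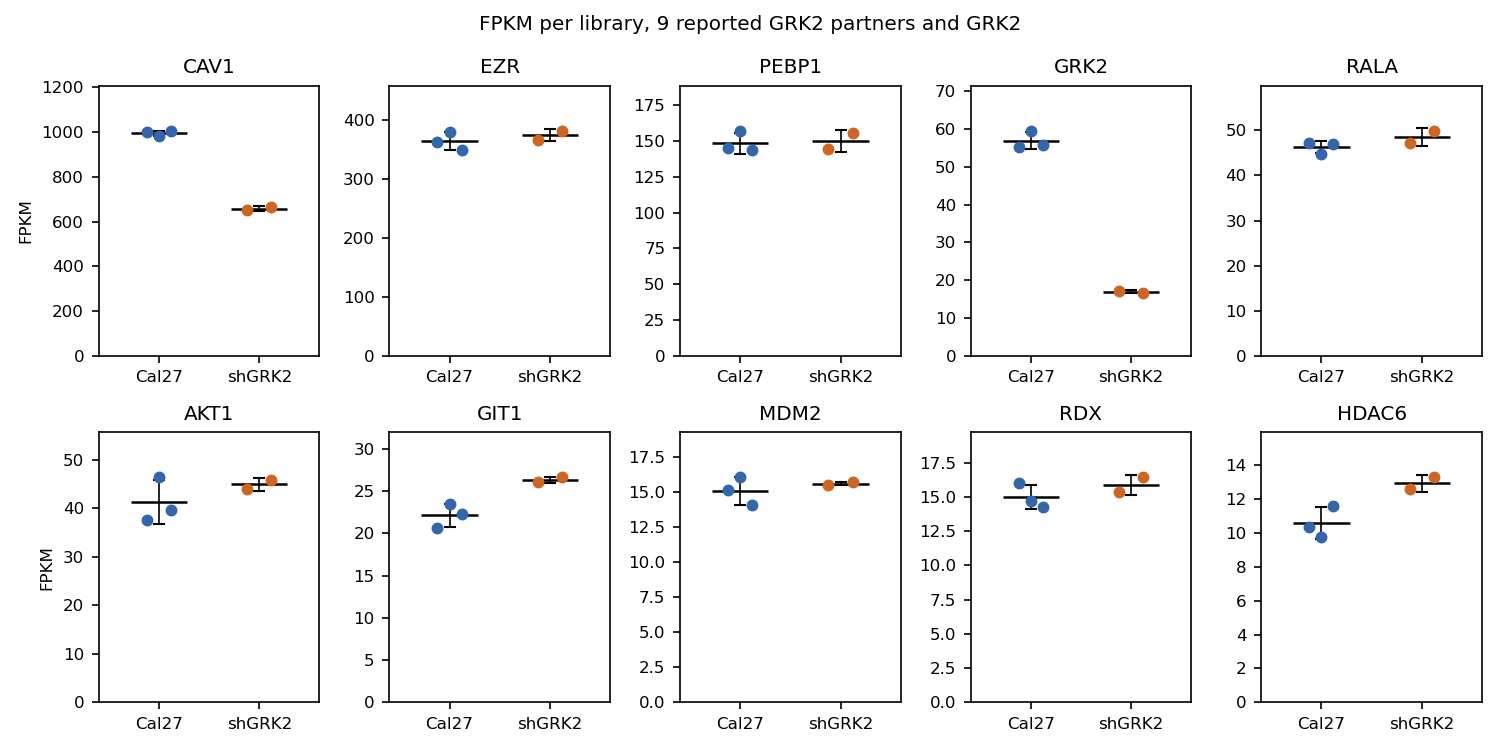
FPKM of the 9 partners and of GRK2 in each library, ordered by Cal27 level, with each vertical axis starting at 0; points are the 3 Cal27 and 2 Cal27-shGRK2 libraries, lines and bars the mean ± SD. CAV1 and GRK2 are lower in both Cal27-shGRK2 libraries, and GIT1 and HDAC6 lie slightly higher without overlap.

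The partners differed far more from one another than between the groups. FPKM is scaled by transcript length, so levels can be set side by side. CAV1 was highest in Cal27, at 994 FPKM and above 99.2% of the genes tested, followed by EZR at 364 and PEBP1 at 148 FPKM. RALA (46.3 FPKM) and AKT1 (41.3 FPKM) came next with overlapping Cal27 libraries, then GIT1 (22.1 FPKM). MDM2 (15.1 FPKM) and RDX (15.0 FPKM) could not be separated, and HDAC6 was lowest at 10.6 FPKM, above 48.3% of the genes tested. All other neighbours in this order had ranges that did not overlap in Cal27. The order was the same in Cal27-shGRK2, except that RDX had a slightly higher mean than MDM2 (15.9 and 15.6 FPKM), within their spread. GRK2 lay between PEBP1 and RALA in Cal27 and between GIT1 and RDX in Cal27-shGRK2. The PEBP1 to GRK2 ratio of FPKM went from 2.61 to 8.85, and that of RALA from 0.815 to 2.86. Of the genes in these ratios only GRK2 passed the test.

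CAV1 encodes caveolin-1, the membrane protein that forms the coat of caveolae with the cavins and whose scaffolding region has been reported to bind and inhibit GRK2. The gene (ENSG00000105974.11) lies on chromosome 7 from 116524785 to 116561184, plus strand, in hg38 (GENCODE version 29). It had 998, 981 and 1004 FPKM in the Cal27 libraries and 650.5 and 665 FPKM in the Cal27-shGRK2 libraries. Every Cal27 library was above both Cal27-shGRK2 libraries by a margin many times the spread within a group. Its mean was 994 ± 11.9 FPKM (SD, n = 3) in Cal27 and 658 ± 10.2 (SD, n = 2) in Cal27-shGRK2. The log2 fold change was -0.60 ± 0.06 (SE, limma adjusted p = 1e-06, 95% interval -0.72 to -0.48). An exact permutation test, two-sided, gave p = 0.1, which is its minimum for 3 against 2 libraries. The authors' deposited table gives a log2 fold change of -0.58 with q = 0.015. The third Cal27-shGRK2 value that the authors' group mean implies was 679 FPKM, also below every Cal27 library. Over 15 alternatives the log2 fold change lay between -0.61 and -0.54, with adjusted p or the authors' q up to 0.015.

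CAV2, the caveolin that assembles with CAV1, is encoded just upstream of it on the same strand. It had 273, 264 and 276 FPKM in Cal27, against 242 and 249 in Cal27-shGRK2. The groups did not overlap, but the log2 fold change of -0.14 ± 0.06 (SE) did not pass (limma adjusted p = 0.082), although it passed without Cal27 replicate 1 (0.043) and with a further library computed from the authors' mean (0.033), in a range of adjusted p or the authors' q from 0.033 to 0.71. CAV1 made up 78.5%, 78.8% and 78.5% of the summed CAV1 and CAV2 FPKM in Cal27 and 72.9% and 72.7% in Cal27-shGRK2. The share was lower by 5.78 percentage points (exact permutation p = 0.1, the smallest possible, and 0.2 after Benjamini-Hochberg adjustment over the 8 family shares computed). The share was lower in both Cal27-shGRK2 libraries than in every Cal27 library, but with 5 libraries this difference cannot pass the threshold.

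Within 500 kb of CAV1, 6 other genes were tested and 0 passed in limma, beside 29.6% of all genes tested. Of the 6, 2 had an unadjusted p under 0.05 and 0 were marked in the authors' deposited table. TES, a focal adhesion protein gene, had a log2 fold change of 0.03, MET, the hepatocyte growth factor receptor, 0.03, the actin-capping subunit CAPZA2 0.02, and ST7 0.07. With CAV2 these are 5 of the 6 genes. The sixth has no symbol in the table, overlaps CAV2 on the opposite strand and had the most negative value of the 6, a log2 fold change of -0.27 (limma adjusted p = 0.055). These neighbours were counted after their values were seen.

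**Figure D2:**
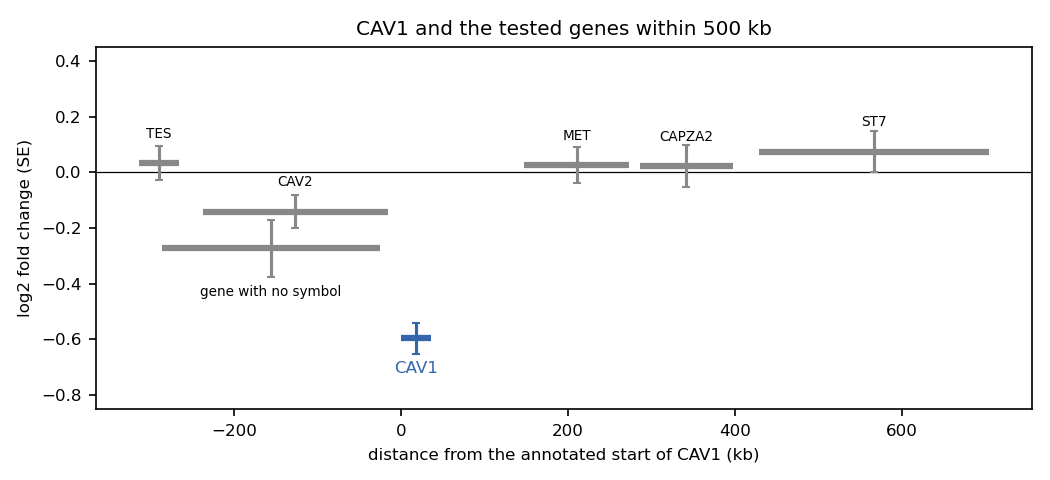
Log2 fold change of CAV1 and of the 6 tested genes within 500 kb against distance in kb from the annotated start of CAV1; horizontal bars span each gene and vertical bars are SE. CAV1 lies at -0.60, the gene with no symbol at -0.27, CAV2 at -0.14, and TES, MET, CAPZA2 and ST7 lie between 0.02 and 0.07.

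Among the other genes of caveolae, 9 of 11 listed were tested. Of these 2 rose and 1 fell (33.3%, beside 29.6% of all genes tested), and the median log2 fold change was -0.05. The caveolar coat protein CAVIN1, listed as PTRF, fell from 119, 138 and 114 to 101 and 108 FPKM (log2 fold change -0.24, adjusted p = 0.034), but its call was lost in 8 of 15 alternatives. PACSIN2, a membrane-bending protein of caveolae, rose from 25.8, 27.5 and 26.8 to 35.0 and 34.4 FPKM (0.37). EHD4, an ATPase of endocytic membranes, rose from 27.8, 34.5 and 29.2 to 39.6 and 42.8 FPKM (0.43). The calls of PACSIN2 and EHD4 held in all 15 alternatives. The share of these genes that passed was near that of all genes tested, which also changed in both directions (15.0% higher and 14.6% lower).

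GIT1 encodes an ARF GTPase-activating protein and scaffold, first isolated through its binding to GRK2, that carries PIX exchange factors and PAK kinases to focal adhesions. It had 20.7, 23.4 and 22.3 FPKM in Cal27, against 26.1 and 26.6 in Cal27-shGRK2. The groups did not overlap, with a gap between them similar in size to the range within Cal27. The mean was 22.1 ± 1.40 FPKM (SD, n = 3) in Cal27 and 26.3 ± 0.393 (SD, n = 2) in Cal27-shGRK2, and the third Cal27-shGRK2 value implied by the authors' mean was 27.3 FPKM. Its log2 fold change was 0.24 ± 0.07 (SE, limma adjusted p = 0.016, 95% interval 0.09 to 0.39). The call was lost without Cal27 replicate 0 (adjusted p = 0.061), without the Cal27-shGRK2 library that stands for replicates 0 and 1 (0.078) and without replicate 2 of that group (0.11), and the authors' deposited table gives q = 0.22 (range over all alternatives 0.0028 to 0.22).

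Several genes crowd around GIT1. The gene (ENSG00000108262.15, chromosome 17, 29573469 to 29594054, minus strand) sits in a locus that the authors' table gives as 625929 bp long and that spans 8 coding genes. It overlaps ANKRD13B and an antisense RNA on the opposite strand and AC104564.4 on the same strand. Reads of the overlapping genes may therefore not be separated, as no source used here states how strand was handled in counting. Of 9 genes tested within 500 kb, 5 rose and 0 fell, against 15.0% and 14.6% of all genes tested. This count was made after the values were seen, and the authors' deposited table marks 2 of the 9. The most changed was the coronin gene CORO6, from 2.91, 3.64 and 3.06 to 9.54 and 9.28 FPKM (log2 fold change 1.31). ABHD15 (0.37), the cofilin phosphatase gene SSH2 (0.31) and MYO18A (0.42) were also among them, whereas ANKRD13B, the coding gene that overlaps GIT1, did not pass (-0.09, adjusted p = 0.49). The call of CORO6 held in all 15 alternatives. Without the Cal27-shGRK2 library that stands for replicates 0 and 1 the calls of ABHD15 (adjusted p = 0.081) and MYO18A (0.056) were lost, and without replicate 2 of that group that of SSH2 (0.065). The authors' deposited table gives q = 0.59 for ABHD15 and q = 0.93 for SSH2.

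Of the rest of the GIT, PIX and PAK complex, 9 of 12 listed genes were tested, with a median of 0.04. Among them 2 were higher and 1 was lower (33.3%, beside 29.6% of all genes tested). GIT2, the close relative of GIT1, rose from 7.59, 7.95 and 8.15 to 9.94 and 11.1 FPKM (log2 fold change 0.37, adjusted p = 0.0021), a call lost without Cal27-shGRK2 replicate 2 (0.053). The focal adhesion adaptor paxillin, PXN, which binds GIT proteins, rose from 149, 172 and 154 to 199.8 and 202 FPKM (0.34, adjusted p = 0.0012), although the authors' deposited table does not mark it (q = 0.16). The kinase PAK2 fell from 43.6, 48.2 and 43.8 to 37.0 and 38.9 FPKM (-0.24), with its call lost in 2 of 15 alternatives. GIT1 made up 73.7% of the GIT1 and GIT2 FPKM in Cal27 and 71.5% in Cal27-shGRK2, with no overlap (exact permutation p = 0.1, adjusted 0.2). That difference ranged from -3.03 to -1.29 percentage points when single libraries were left out.

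HDAC6 encodes the cytoplasmic deacetylase of alpha-tubulin and cortactin, which GRK2 has been reported to phosphorylate during migration of epithelial cells. The gene (ENSG00000094631.18) lies on chromosome X from 48801377 to 48824982, plus strand. It had 10.3, 9.77 and 11.6 FPKM in Cal27, against 12.6 and 13.3 in Cal27-shGRK2. The groups did not overlap, but the gap between them was smaller than the range within Cal27. The mean was 10.6 ± 0.930 FPKM (SD, n = 3) in Cal27 and 12.9 ± 0.495 (SD, n = 2) in Cal27-shGRK2, and the further Cal27-shGRK2 value implied by the authors' mean was 13.6 FPKM. Its log2 fold change was 0.27 ± 0.08 (SE, limma adjusted p = 0.021, 95% interval 0.10 to 0.44), and the exact permutation test gave p = 0.2. The call was lost without Cal27 replicate 1 (adjusted p = 0.057), without the Cal27-shGRK2 library that stands for replicates 0 and 1 (0.073), without replicate 2 of that group (0.16) and in limma without trend (0.053), and the authors' deposited table gives q = 0.22 (range 0.0040 to 0.22).

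HDAC10, the other deacetylase of the same subclass, had 10.6, 12.3 and 11.7 FPKM in Cal27, against 12.5 and 11.8 in Cal27-shGRK2, which overlap (log2 fold change 0.07, adjusted p = 0.53). The HDAC6 share of their sum was 47.8% in Cal27 and 51.5% in Cal27-shGRK2 (exact permutation p = 0.3). Of 14 tested genes around HDAC6 and tubulin acetylation, 2 rose and 2 fell (28.6%, beside 29.6% of all genes tested). Their median log2 fold change was -0.05. SIRT2, a second tubulin deacetylase, rose from 18.1, 21.0 and 18.9 to 23.1 FPKM in both Cal27-shGRK2 libraries (0.25, adjusted p = 0.017). TUBA4A, an alpha-tubulin, rose from 116, 118 and 111 to 127 and 136 FPKM (0.19). HSP90AA1, a chaperone that HDAC6 deacetylates, fell from 528, 502 and 520.4 to 412 and 444 FPKM (-0.27), and HDAC11 fell from 4.78, 5.75 and 4.79 to 3.68 and 3.96 FPKM (-0.34). Each of these 4 calls was lost in some alternatives, SIRT2 in 5, TUBA4A in 4, HSP90AA1 in 2 and HDAC11 in 3.

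EZR and RDX encode ezrin and radixin, which with moesin (MSN) tie actin filaments to the plasma membrane once a threonine near their C-terminus is phosphorylated, a step reported for GRK2 on ezrin and radixin. EZR (ENSG00000092820.17, chromosome 6, 158765741 to 158819412, minus strand) had 363, 380.5 and 350 FPKM in Cal27, against 367 and 382 in Cal27-shGRK2. RDX (ENSG00000137710.14, chromosome 11, 109864295 to 110296722, minus strand) had 16.0, 14.7 and 14.3 FPKM in Cal27, against 15.4 and 16.4 in Cal27-shGRK2. The annotated span of RDX overlaps ZC3H12C on the opposite strand, while the authors' locus for RDX, 110174880 to 110296722, holds 1 coding gene. The groups overlapped for both genes. The log2 fold change of EZR was 0.04 ± 0.06 (SE, limma adjusted p = 0.67, 95% interval -0.09 to 0.17) and that of RDX 0.08 ± 0.07 (adjusted p = 0.46, -0.08 to 0.24). On the scale of FPKM + 1, these intervals run from 0.941 to 1.12 times the Cal27 level for EZR and from 0.948 to 1.18 times for RDX.

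Genes whose products ezrin and radixin bind were among those that passed. Of 13 tested genes for moesin, membrane partners, scaffolds and regulators, 6 rose and 1 fell (53.8%, beside 29.6% of all genes tested). Their median log2 fold change was 0.12. The membrane proteins that bind this family rose, the hyaluronan receptor CD44 from 396, 485 and 437 to 882 and 936 FPKM (1.05), the sialomucin podocalyxin, PODXL, from 12.2, 14.3 and 13.7 to 40.6 and 38.6 FPKM (1.50), and the adhesion receptor ICAM1 from 14.3, 16.5 and 14.2 to 30.1 and 28.2 FPKM (0.92). SLC9A3R1, the scaffold NHERF1 that links ezrin to membrane channels and transporters, fell from 39.4, 41.9 and 39.2 to 20.9 and 20.7 FPKM (-0.92, adjusted p = 3.4e-08). Calls for CD44, PODXL, ICAM1 and SLC9A3R1 held in all 15 alternatives. MSN had 70.3, 80.8 and 71.5 FPKM in Cal27, against 84.9 and 90.5 in Cal27-shGRK2 (0.24, adjusted p = 0.017), a call lost in 6 of 15 alternatives. EZR made up 80.3% of the summed EZR, RDX and MSN FPKM in Cal27 and 78.3% in Cal27-shGRK2, with no overlap between groups (exact permutation p = 0.1, the smallest possible, adjusted 0.2). The RDX share was 3.31% and 3.33%.

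**Figure D3:**
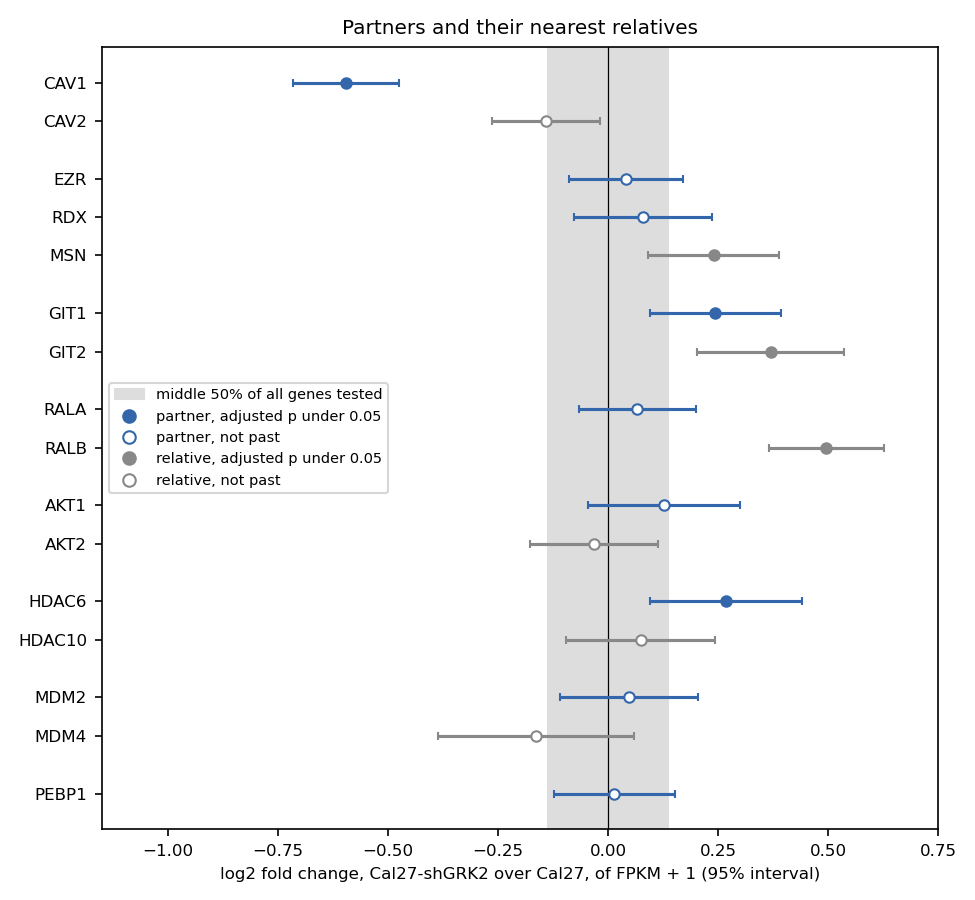
Log2 fold change of FPKM + 1 with its 95% interval for the 9 partners (blue) and their nearest relatives (grey); filled points have an adjusted p under 0.05, and the grey band holds the middle 50% of all genes tested. CAV1 lies far to the left of CAV2, RALB to the right of RALA, and most partners lie within or near the band.

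RALA encodes a small GTPase of the Ras superfamily that acts through the exocyst, the complex that tethers secretory vesicles, and it has been reported to bind GRK2. The gene (ENSG00000006451.7) lies on chromosome 7 from 39623483 to 39708124, plus strand. It had 47.2, 44.7 and 46.9 FPKM in Cal27, against 47.2 and 49.8 in Cal27-shGRK2, and the groups overlapped. With a log2 fold change of 0.07 ± 0.06 (SE, 95% interval -0.07 to 0.20), RALA did not pass (limma adjusted p = 0.47).

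Its close relative RALB had 56.3, 57.9 and 56.3 FPKM in Cal27, against 77.8 and 83.4 in Cal27-shGRK2. RALB rose (log2 fold change 0.50 ± 0.06, limma adjusted p = 1.6e-05), in all 15 alternatives. RALA accounted for 45.6%, 43.6% and 45.4% of the summed RALA and RALB FPKM in Cal27 and for 37.7% and 37.4% in Cal27-shGRK2. The share was lower by 7.30 percentage points, with no overlap (exact permutation p = 0.1, the smallest possible, adjusted 0.2). Of 17 tested genes of the Ral cycle and exocyst, 3 rose and 1 fell (23.5%, beside 29.6% of all genes tested). Their median log2 fold change was 0.05. The exchange factor RALGDS fell from 9.95, 11.0 and 12.2 to 7.89 and 8.04 FPKM (-0.42), in all 15 alternatives. The exchange factor RALGPS2 (0.32) and RALGAPB (0.25), a subunit of the GTPase-activating complex, rose, with calls lost in 2 and 6 of 15 alternatives.

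**Figure D4:**
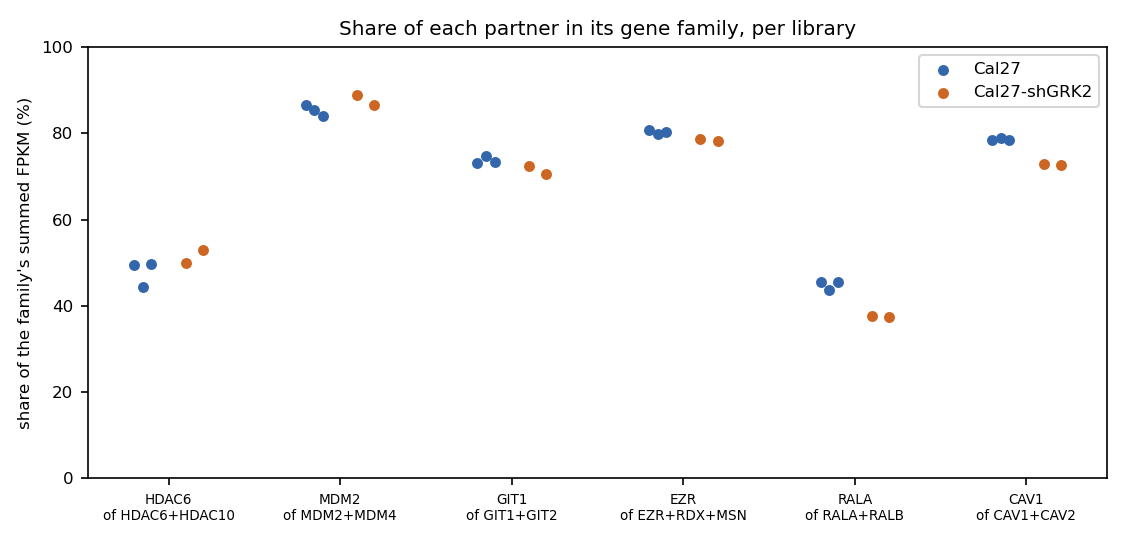
Share in percent of HDAC6, MDM2, GIT1, EZR, RALA and CAV1 in the summed FPKM of their families, per library, with Cal27 in blue and Cal27-shGRK2 in orange. The RALA share goes from 44.9% to 37.6% and the CAV1 share from 78.6% to 72.8%, while the MDM2 shares overlap between groups.

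AKT1 encodes the serine/threonine kinase downstream of PI3-kinase, which GRK2 has been reported to bind and inhibit. The gene (ENSG00000142208.15) lies on chromosome 14 from 104769349 to 104795751, minus strand. It had 37.7, 46.4 and 39.7 FPKM in Cal27, against 44.0 and 45.9 in Cal27-shGRK2. Cal27 replicate 1 lay above both Cal27-shGRK2 libraries and the other Cal27 libraries lay below them. Its log2 fold change was 0.13 ± 0.08 (SE, limma adjusted p = 0.27, 95% interval -0.05 to 0.30). Without Cal27 replicate 1 it was 0.21 and passed (adjusted p = 0.019, range over all alternatives 0.019 to 0.61).

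AKT2 had 63.2, 72.5 and 68.5 FPKM in Cal27, against 68.0 and 65.0 in Cal27-shGRK2 (log2 fold change -0.03, adjusted p = 0.77, with a positive sign when libraries were rescaled to a common total). Among 24 tested genes that activate AKT or end its signal, 8 rose and 3 fell (45.8%, beside 29.6% of all genes tested). Their median was 0.07. PIK3CD, a catalytic subunit of PI3-kinase best known in leukocytes, rose from 2.57, 2.60 and 2.41 to 7.71 and 7.02 FPKM (1.25). IRS2, an adaptor of the insulin receptor, rose (0.44), as did TRIB3, a pseudokinase that binds AKT (0.42), while the phosphatase INPP4B, which lowers PI3-kinase products, fell from 5.43, 5.37 and 6.27 to 3.76 and 3.85 FPKM (-0.47). No alternative in which they were tested ended these 4 calls.

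PEBP1 encodes the RAF kinase inhibitor protein, which holds back the kinases upstream of ERK and, once phosphorylated by protein kinase C, has been reported to bind and inhibit GRK2. The gene (ENSG00000089220.4, chromosome 12, 118135858 to 118145584, plus strand) overlaps VSIG10 on the opposite strand, and the authors' locus spans both. It had 145, 157 and 144 FPKM in Cal27, against 144 and 156 in Cal27-shGRK2, and the groups overlapped. PEBP1 had the smallest log2 fold change of the 9 partners, 0.01 ± 0.06 (SE, limma adjusted p = 0.89, 95% interval -0.12 to 0.15), and its sign changed when single libraries were left out. Of 11 tested genes of the RAF to ERK kinases, 3 rose and 1 fell (36.4%, beside 29.6% of all genes tested). Their median log2 fold change was 0.11. The scaffold KSR1 rose from 5.29, 4.24 and 5.33 to 9.23 and 8.48 FPKM (0.73), MAP2K1, the kinase MEK1, from 29.9, 29.7 and 27.7 to 37.0 and 38.6 FPKM (0.37), and MAPK3, the kinase ERK1, had a log2 fold change of 0.28 whose call was lost in 3 of 15 alternatives. HRAS fell from 88.0, 93.9 and 89.1 to 61.5 and 65.1 FPKM (-0.51). The calls of KSR1, MAP2K1 and HRAS held in all 15.

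MDM2 encodes an E3 ubiquitin ligase and has been reported to ubiquitinate GRK2. The gene (ENSG00000135679.21) lies on chromosome 12 from 68808176 to 68850686, plus strand. It overlaps 2 genes on the same strand and 2 on the opposite strand, among them CPM. The authors' locus for it is 163399 bp long and spans 2 coding genes, so reads may not be separated. MDM2 had 15.1, 16.0 and 14.1 FPKM in Cal27, against 15.5 and 15.7 in Cal27-shGRK2, and both of the latter lay inside the Cal27 range. Its log2 fold change was 0.05 ± 0.07 (SE, limma adjusted p = 0.67, 95% interval -0.11 to 0.20). Its relative MDM4 had 2.34, 2.72 and 2.67 FPKM in Cal27, against 1.96 and 2.44 in Cal27-shGRK2 (-0.16, adjusted p = 0.27). Of 9 tested genes listed around the control of MDM2, 0 passed in limma, beside 29.6% of all genes tested. Of the 9, 1 had an unadjusted p under 0.05 and 0 were marked in the authors' deposited table. Their median was -0.03. These included the cell cycle inhibitor CDKN1A, named after its values were seen, at 10.5, 11.7 and 10.7 FPKM in Cal27, against 11.9 and 12.5 in Cal27-shGRK2.

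Other proteins reported as GRK2 substrates or partners were listed by name from general knowledge, and 29 of 34 were tested. Of these 8 rose and 4 fell (41.4%, beside 29.6% of all genes tested), and their median log2 fold change was 0.03. KCNIP3, a calcium-binding protein also called DREAM, rose from 2.2, 2.71 and 2.27 to 6.83 and 7.35 FPKM (1.26, adjusted p = 1e-07). The ubiquitin ligase NEDD4L, which acts on the epithelial sodium channel, rose from 23.1, 24.7 and 22.3 to 34.3 and 38.9 FPKM (0.62). The Hedgehog receptor SMO fell from 10.0, 10.9 and 10.4 to 5.66 and 5.46 FPKM (-0.80). These 3 calls held in every alternative in which the genes were tested. Over the 9 lists around the partners, 135 distinct genes were tested, with a median of 0.04. Of the 135, 34 rose and 14 fell (35.6%), beside 29.6% of all genes tested, 15.0% higher and 14.6% lower. Single lists ran from 0% to 53.8%, and no test of the lists was run. Rescaling each library to a common total raised the median of all genes by 0.05 and the share of higher genes among all called genes from 50.7% to 65.3%. Under that scaling 62 of the list genes passed, against 48 here.

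**Figure D5:**
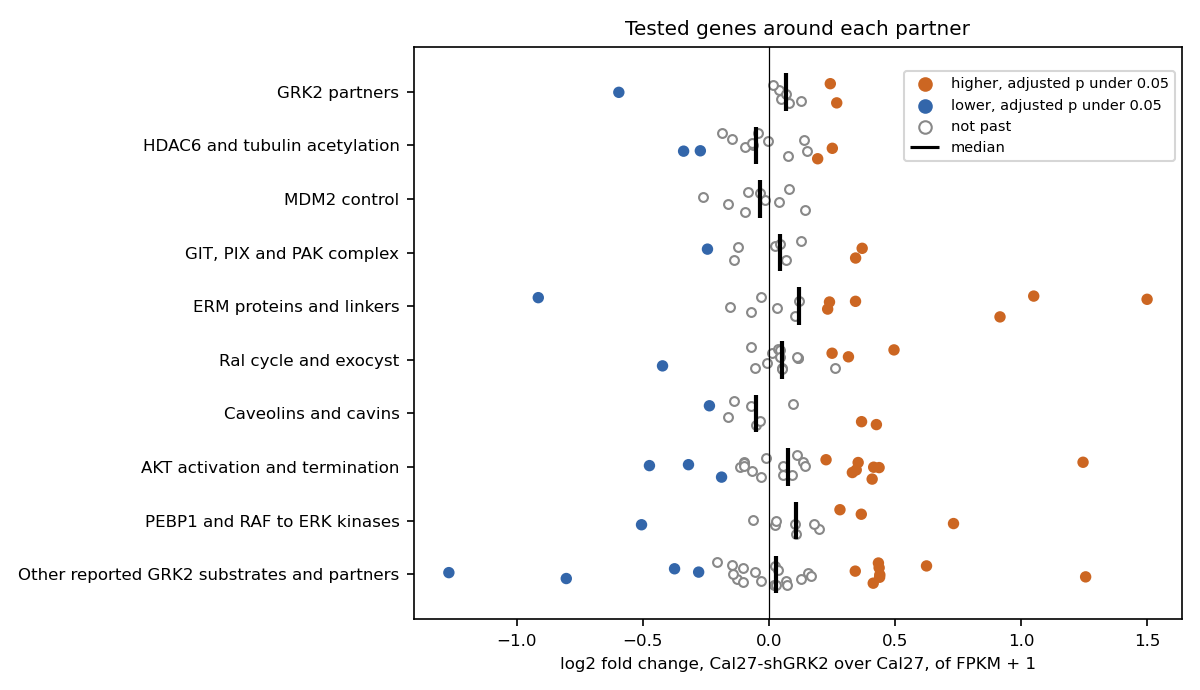
Log2 fold change of every tested gene in the list of partners and the 9 lists around them; filled points have an adjusted p under 0.05 (orange higher, blue lower), open points do not, and black bars are medians. The list medians lie between -0.05 and 0.12, and PODXL (1.50), KCNIP3 (1.26) and PIK3CD (1.25) lie farthest to the right.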

How the data were processed

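The kit named in the labels makes stranded messenger RNA libraries. For the processing, the submitters' processing notes list the build hg38 and the tools Cuffdiff 2.2.1, TopHat2 2.1.0 and Bowtie2 2.2.6. Not given in the sources used here are their roles and the strand setting. The authors deposited FPKM per library and per condition, per the file headers, with 0 written as 0.0001. Per the file headers, the deposited comparison of the conditions holds p-values, q-values, a test statistic (score) and a log2 fold change.

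Depth is unknown, since steps of 1 read were not seen among low values (genes under 0.3 FPKM: at most 1.36% to 3.09% of log2 ratios fell in any bin of 0.02). The authors' condition value was set against the mean of the columns in genes where it was at least 1 FPKM. It equalled that mean (relative tolerance 1e-04) in 100% of 13339 genes for Cal27 and in 0.331% of 13307 for Cal27-shGRK2. A further library was therefore computed from it as an alternative, taking it as a plain mean of 3 libraries. In 74 genes the computed value was negative and was set to 0.

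The test was limma 3.58.1 in R 4.3.3, with trend and robust settings, applied to log2(FPKM + 1) of genes whose mean over 5 distinct libraries was 1 FPKM or more. Fold changes on that scale understate low genes. The script was tested on simulated data. Family shares were tested with exact permutation tests. Identifiers were matched to GENCODE version 29 (18503 of 18678). The genes named are the 9 partners, GRK2, the nearest relatives, and up to 4 called genes per list with the largest change, besides called markers of other cell types and the 3 closest genes per called partner. A few genes that this rule names, and the results that need them, are not reported here. Outside this rule, the chromosomal neighbours of CAV1, GIT1 and AKT1 and the gene CDKN1A were chosen after their values were seen, and KRT5, TP63, COL1A1 and CD14 are named as markers. The partners and lists were chosen with earlier results of these data known.

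Alternatives were a pseudocount of 0.1, no filter, a mean of at least 5 FPKM, 3 scalings, limma without trend, a replicate block, leaving out each library, the computed library and the authors' comparison.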

Additional observations from a re-analysis of the deposited data

How the results depend on the processing

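Of the 9 partners, CAV1 kept its direction and call in all 15 alternatives, and EZR, RDX, RALA and MDM2 kept theirs, without a call. HDAC6 lost its call in limma without trend (log2 fold change 0.27) and in the authors' deposited comparison (0.31), and ranged from 0.22 to 0.33 when single libraries were left out. GIT1 lost its call in the authors' deposited comparison (0.27) and ranged from 0.20 to 0.28 without single libraries. AKT1 ranged from 0.065 to 0.21 and PEBP1 from -0.039 to 0.068. The partners past the threshold numbered 1 to 3 without single libraries and 1 in the authors' deposited comparison, and all genes past it 2600 to 4028, lowest without the Cal27-shGRK2 library that stands for replicates 0 and 1. AKT2 became positive when rescaled to a common total (0.024) and ranged from -0.083 to 0.014 without single libraries. CAPZA2 ranged from -0.10 to 0.15 and MET from -0.0085 to 0.068. The GIT1 share of GIT1 and GIT2 ranged from -3.03 to -1.29 percentage points. List genes past the threshold numbered 35 to 62, against 48. The cause was not tested. Same-numbered libraries deviated together with correlations of 0.08 and 0.02 across genes. With 2 Cal27-shGRK2 libraries, their deviations from the group mean mirror each other, so these correlations are not independent. Which replicate the library shared by 0 and 1 belongs to is also unknown, so whether the numbers pair samples could not be settled. With a replicate block AKT1 passed (0.21), AKT2 became positive (0.014) and CAPZA2 negative (-0.0090), and 3960 genes passed against 3957. Replicate 1 holds a Cal27 library alone in that block, so its fold changes are those found without Cal27 replicate 1. Unknown depth gives no counting error, and 5 libraries cannot bring an exact permutation p under 0.1.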

Other observations

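The tested genes whose pattern over the 5 libraries was closest to that of each partner past the threshold were found by the Euclidean distance between log2(FPKM + 1) values centred per gene. For CAV1 these were PLEKHH3, at a distance of 0.049, PLSCR1, the phospholipid scramblase (0.055), and SCPEP1, a serine carboxypeptidase (0.060). PLSCR1 had 98.2, 96.1 and 99.3 FPKM in Cal27, against 61.3 and 63.2 in Cal27-shGRK2. For GIT1 they were ELOVL1, a fatty acid elongase (0.014), WDR7 (0.017) and RSPH3 (0.024). ELOVL1 had 77.7, 88.2 and 83.4 FPKM in Cal27, against 97.4 and 100.4 in Cal27-shGRK2. For HDAC6 they were VPS13C (0.059), AKTIP (0.061) and PLLP (0.067).

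Of 10 genes tested within 500 kb of AKT1, 4 fell and 0 rose, against 14.6% and 15.0% of all genes tested. This count was made after the values were seen. Within the same distance of HDAC6, 4 of 28 fell and 2 rose. Near RALA 2 of 4 fell, near PEBP1 2 of 8 rose, and none passed near MDM2, EZR or RDX. SIVA1, an apoptosis regulator that lies next to AKT1 on the opposite strand, had 108, 125 and 120.5 FPKM in Cal27, against 72.9 and 77.1 in Cal27-shGRK2 (log2 fold change -0.64, limma adjusted p = 4.1e-06). The Notch ligand JAG2 had 16.9, 17.4 and 15.3 FPKM in Cal27, against 4.35 and 4.76 in Cal27-shGRK2 (-1.66).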
